A study of Homo sapiens with 8 samples.

Results

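The Krüppel-like factors (KLF) are transcription factors that share a zinc-finger domain at the end of the protein and bind GC boxes and CACCC elements in promoters. In all, 10 members of the family were taken by gene symbol: KLF2, KLF3, KLF4, KLF5, KLF6, KLF9, KLF10, KLF11, KLF13 and KLF16, with all 13 probes that the array carries for them. Of these 10 genes, 9 were detected often enough to be tested, among 10856 genes tested in all. KLF16 was the exception: its only probe was detected on 1 of 8 arrays.

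The family is usually sorted by the cofactors its proteins bind. KLF2, KLF4, KLF5 and KLF6 act mainly as activators and recruit acetyltransferases, KLF3 represses through the CtBP proteins, and KLF9, KLF10, KLF11, KLF13 and KLF16 bind the Sin3 corepressor. In the colon, KLF4 is known as a factor of the differentiated surface cells that holds back division, and KLF5 as a factor of the dividing crypt cells. Several members are also early response genes, whose transcripts rise and decay quickly after signals such as serum, TGF-beta or stress.

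The transcripts were measured in SW620, an established human colorectal cancer cell line, on single-colour Illumina bead arrays with 2 arrays for each of 4 groups, all at 24 h. One group was left untreated and one was given Y15 at 4 uM, and the other two were transfected, either with an siRNA to HAS3 or with a scrambled control. Y15 inhibits focal adhesion kinase (FAK) as a small molecule, and HAS3 is an enzyme that makes the matrix polysaccharide hyaluronan. The design sets Y15 against untreated cells and the siRNA against the scrambled sequence. No vehicle is named for the untreated cells, all groups are of 1 cell line, and no label states separate cultures for the arrays of a group. The p-values therefore cover only array-to-array spread, which may be technical.

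Levels are given as log2 intensities after background correction and quantile normalization, and differences as log2 differences with their standard error (SE) and the fold. A gene was called at a limma p-value below 0.05 after Benjamini-Hochberg adjustment over all 10856 genes, and every adjusted p here is two-sided and from that fit. The second Y15 array was the dimmest, with a mean probe intensity of 234.1 against 352.1 to 524.7 on the other arrays. The siRNA arrays read HAS3 lower than the scrambled arrays by a log2 difference of -0.43 ± 0.17 (SE, n = 2 per group), which was not called (adjusted p = 0.151). HAS3 was at 10.05 and 9.73 on the siRNA arrays, 10.49 and 10.16 on the scrambled arrays, and 9.32 and 9.50 in untreated cells. The siRNA arrays therefore lay below both scrambled arrays and above both untreated arrays.

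The promoters of the 4 activators are shown because all of them rose with Y15 by more than 1 log2 unit and 3 of them were also called with the siRNA. Each stretch is the 250 bases before the gene start in RefSeq (GRCh38.p14), read 5′ to 3′ on the strand of the gene. Capitals mark GGGCGG (a GC box), CACCC and TGACG (the core of a CRE element), each on either strand. The stretches lie at chr10:3785210-3785459 on the minus strand for KLF6, chr9:107489770-107490019 on the minus strand for KLF4, chr13:73054726-73054975 on the plus strand for KLF5 and chr19:16324576-16324825 on the plus strand for KLF2.
KLF6: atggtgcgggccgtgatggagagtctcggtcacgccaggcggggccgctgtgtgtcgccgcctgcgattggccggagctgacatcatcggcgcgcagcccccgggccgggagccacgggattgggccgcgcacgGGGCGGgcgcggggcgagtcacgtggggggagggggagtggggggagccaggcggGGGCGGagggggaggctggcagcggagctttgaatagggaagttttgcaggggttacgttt
KLF4: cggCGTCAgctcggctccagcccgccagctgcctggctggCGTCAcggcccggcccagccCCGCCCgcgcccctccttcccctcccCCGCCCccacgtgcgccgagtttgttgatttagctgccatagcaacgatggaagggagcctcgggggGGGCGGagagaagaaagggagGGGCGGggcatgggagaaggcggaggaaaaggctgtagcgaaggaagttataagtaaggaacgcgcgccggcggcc
KLF5: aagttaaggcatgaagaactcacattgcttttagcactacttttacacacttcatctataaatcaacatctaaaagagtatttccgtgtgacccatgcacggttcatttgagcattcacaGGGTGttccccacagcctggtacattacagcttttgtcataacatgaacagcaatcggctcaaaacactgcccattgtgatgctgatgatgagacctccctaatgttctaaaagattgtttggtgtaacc
KLF2: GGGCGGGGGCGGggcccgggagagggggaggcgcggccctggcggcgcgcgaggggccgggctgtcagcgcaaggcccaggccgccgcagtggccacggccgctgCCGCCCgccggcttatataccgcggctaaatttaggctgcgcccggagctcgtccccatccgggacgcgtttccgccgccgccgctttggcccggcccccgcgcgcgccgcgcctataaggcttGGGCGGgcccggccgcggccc
The KLF6 stretch holds GGGCGG 2 times and the KLF4 and KLF2 stretches 4 times each. KLF4 also holds TGACG 2 times, both as CGTCA near the distal end. The KLF5 stretch has none of these except a single CACCC, read on the other strand as GGGTG, and the start used in SW620 cells may lie elsewhere.

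Of the 10 genes, 8 had a RefSeq promoter of 300 bases to search (250 before the start and 50 after). GGGCGG was in 6 of these 8 (KLF2, KLF4, KLF6, KLF11, KLF13 and KLF16) against 45% of all 35116 promoters of that length. CACCC, the core of the site that the KLF proteins bind, was in 2 of 8 (KLF5 and KLF13) against 59.9%. TGACG was in 3 of 8 (KLF4, KLF13 and KLF16) against 24.6%, and the outer bases of the serum response factor site (CC and GG, 6 bases apart) were in 7 of 8 against 78.2%. TGAGTCA, the AP-1 site, was in 0 of 8 and in 4.95% of all promoters. Motifs were read on both strands, and neighbouring matches can share bases. The windows differ widely in base composition, from 32.7% GC at KLF9 and 40.7% at KLF5 to 80.7% at KLF2 and 86% at KLF16, with 57.53% over all promoters.

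With Y15, 8 of the 9 tested genes rose and none fell, and at an unadjusted limma p below 0.05 the counts were 9 and 0. Calls were made for 41.8% of all genes tested in that comparison, with 18.8% higher and 23% lower. The shares of all genes called are at the adjusted p throughout. At an unadjusted p below 0.05 they are larger and were not counted. The median of the 9 log2 differences was 1.42, against -0.03 over all genes tested. The genes were chosen with earlier results of these data known, so the counts and this median are not independent of that choice. Among KLF genes tested outside the chosen ones, KLF8, KLF12 and KLF15 had Y15 differences of 0.16, -0.07 and -0.75. All 9 genes read higher on both Y15 arrays than on both untreated arrays. The 2 groups did not overlap, in either direction, in 67.8% of all genes. Without the dim second Y15 array 8 of the 9 were again called.

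**Figure D1:**
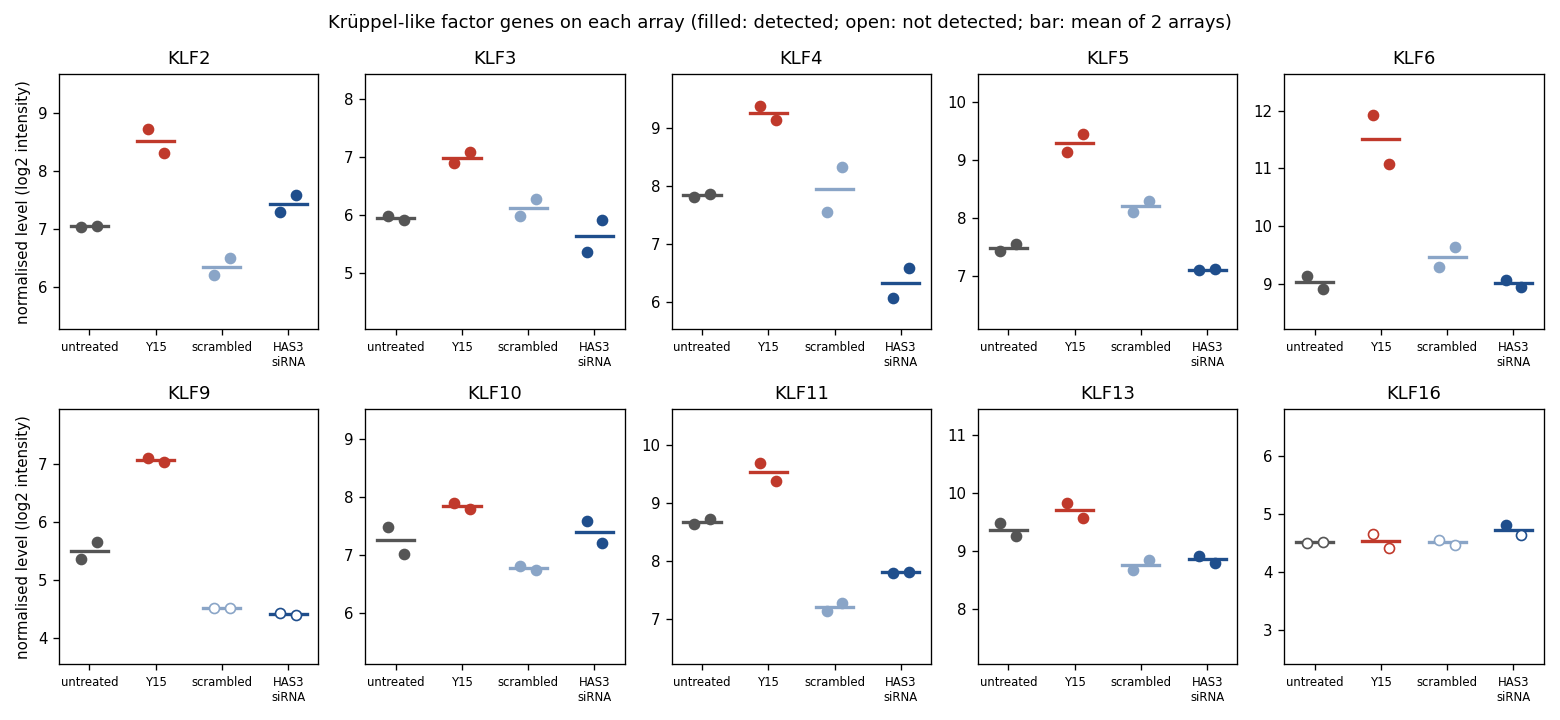
Normalised level (log2 intensity) of each gene on each array, by group. Points are arrays, filled where the probe was detected, and the bar is the mean of 2 arrays. KLF6 reached 11.92 and 11.08 with Y15 from 9.15 and 8.92 in untreated cells, and KLF9 was not detected in either transfected group.

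KLF6, an activator found in most tissues and induced by injury (chr10:3775996-3785209), rose most of the 9 genes. It was at 9.15 and 8.92 in untreated cells, 11.92 and 11.08 with Y15, 9.30 and 9.64 with the scrambled sequence, and 9.08 and 8.96 with the siRNA. Y15 stood apart from the other groups, and its arrays were also the least alike. The rise was 2.47 ± 0.23 (SE), or 5.53-fold (adjusted p = 1e-05), the 39th largest of the 10856. The raw intensity on the 2 Y15 arrays was 4376.3 and 1083.7, and the second is the dim array named above, without which the rise was 2.89.

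KLF5 (chr13:73054976-73077538) was at 7.42 and 7.54 in untreated cells and at 9.14 and 9.45 with Y15. This was a rise of 1.81 ± 0.15 (SE), or 3.52-fold (adjusted p = 4e-06). KLF4 (chr9:107484852-107489769) was at 7.80 and 7.86 in untreated cells and at 9.38 and 9.14 with Y15, a rise of 1.42 ± 0.23 (SE), or 2.68-fold (adjusted p = 0.000519). The factor of dividing crypt cells and that of surface cells thus both rose with Y15, each with a gap of more than 1 log2 unit between the groups.

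KLF2 (chr19:16324826-16328685), known for keeping T cells and endothelium quiescent, was at 7.05 on both untreated arrays and at 8.74 and 8.32 with Y15. It rose by 1.48 ± 0.17 (SE), or 2.79-fold (adjusted p = 5.2e-05). Because endothelium and resting T cells are rich in KLF2, markers of both were read on the same arrays. Of 6 endothelial markers 1 to 3 were detected on an array, and CDH5, TEK and KDR on none. Their summed level (linear, normalised) was 176.0 to 177 in untreated cells, 185.6 to 229.5 with Y15, 152.9 to 159.6 with the siRNA and 169.2 to 179.7 with the scrambled sequence. VWF rose with Y15 by a log2 difference of 0.58 (adjusted p = 0.00667). Of 7 leukocyte markers 1 or 2 were detected on an array, and PTPRC, CD3E, CD3D, CD2 and CD79A on none. Their summed level was 334.3 to 334.8 in untreated cells, 500.04 to 570.5 with Y15, 342.9 to 346.9 with the siRNA and 340.1 to 357.7 with the scrambled sequence. CD68, a lysosomal protein used as a macrophage marker, rose by 1.79 with Y15 (adjusted p = 7.84e-06).

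KLF3 (chr4:38664199-38701517), the CtBP-dependent repressor, was at 5.99 and 5.92 in untreated cells and at 6.89 and 7.09 with Y15. It rose 2.06-fold, by 1.04 ± 0.18 (SE; adjusted p = 0.000846). Its scrambled arrays, at 5.99 and 6.28, and its siRNA arrays, at 5.37 and 5.91, spanned the untreated level.

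Among the Sin3-binding members, 3 of 4 tested rose with Y15. KLF9 (chr9:70384604-70414657), a gene induced by glucocorticoid and thyroid hormone, was at 5.36 and 5.65 in untreated cells and at 7.10 and 7.03 with Y15. It rose 2.95-fold, by 1.56 ± 0.14 (SE; adjusted p = 7.48e-06). KLF11 (chr2:10043550-10054836), which TGF-beta induces early, was at 8.63 and 8.72 in untreated cells and at 9.69 and 9.38 with Y15. It rose 1.82-fold, by 0.86 ± 0.14 (SE; adjusted p = 0.0006). These members shared the direction of the activators, with KLF9 up by more than 1 log2 unit.

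KLF10 (chr8:102648784-102655725), another early TGF-beta gene, was at 7.48 and 7.03 in untreated cells and at 7.90 and 7.80 with Y15. The rise was 0.60 ± 0.18 (SE), or 1.51-fold (adjusted p = 0.0177). The call was lost without the second untreated array, where the difference was 0.37 (adjusted p = 0.161), and without the first Y15 array (adjusted p = 0.0544). KLF13 (chr15:31326835-31435665), known for driving the chemokine CCL5 in T cells, was at 9.48 and 9.25 in untreated cells and at 9.83 and 9.58 with Y15. Its difference of 0.34 ± 0.15 (SE) was not called (adjusted p = 0.0909), and it read -0.11 when arrays were centred on their medians.

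KLF16 (chr19:1852399-1876536), known in the mouse as a regulator of dopamine receptor genes, read 4.50 and 4.52 in untreated cells, 4.65 and 4.40 with Y15, 4.81 and 4.64 with the siRNA, and 4.56 and 4.46 with the scrambled sequence. It was detected on the first siRNA array alone, so no difference between groups was tested.

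Centring the arrays on the median of all probes in place of quantile normalization moved the median Y15 difference of all genes from -0.03 to -0.31. Under it 5 of the 9 genes were called, and KLF3, KLF10 and KLF11 were not. Relative to that median KLF3 was 0.93 higher, KLF11 0.68, KLF10 0.40 and KLF13 0.20, so all 9 genes stayed above the median gene. Centring on the probes kept, added after the results were seen, moved the median to 0.19 and left 8 genes called. Scaling also moved the split of calls over all genes. The share of calls that were higher was 45% with Y15, and 12.7% and 62.7% under these centrings. It was 44.7% for the difference between the Y15 and siRNA effects, and 10.05% and 68.4% under them. For scrambled against untreated cells it was 45.3%, then 11.7% and 61.04%. For siRNA against scrambled sequence it was 42.3%, then 62.5% and 33.1%, and for siRNA against untreated cells 46.5%, then 29.2% and 50.7%.

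**Figure D2:**
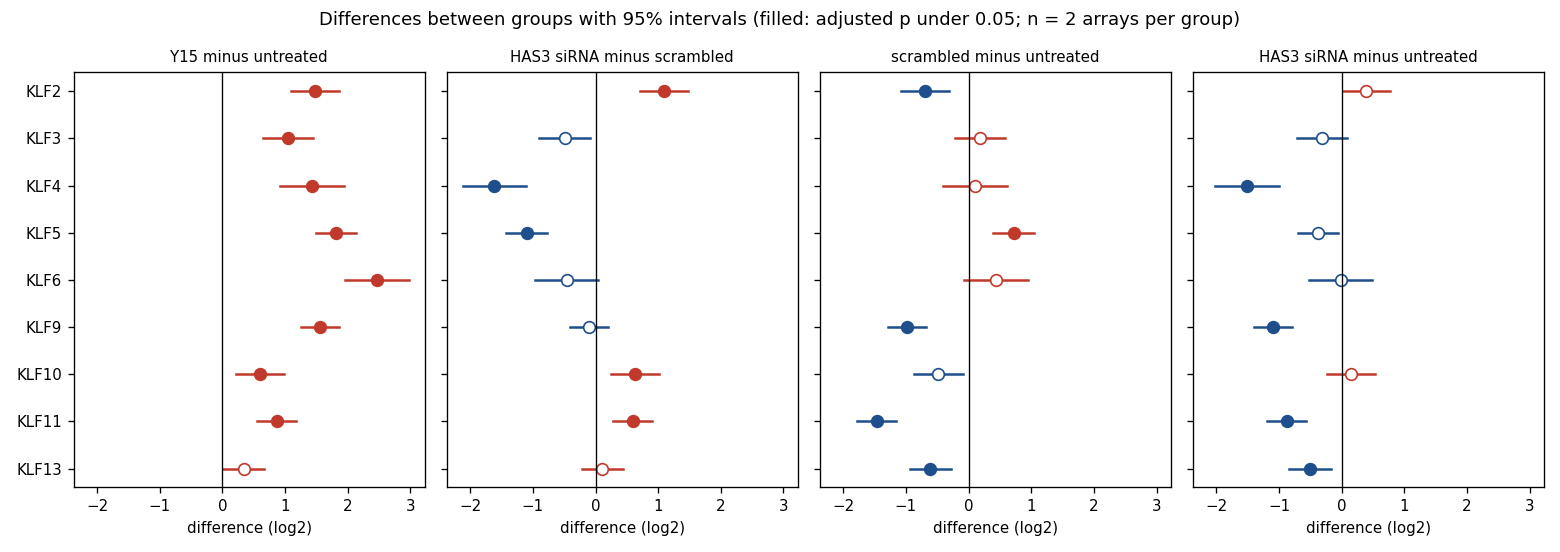
Difference between groups (log2) for each of the 9 tested genes, with 95% intervals, in 4 comparisons of 2 arrays per group. Filled points were called at an adjusted p below 0.05. With Y15 all points lie above 0, and with the siRNA KLF4 lies at -1.61 and KLF2 at 1.09.

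Between the siRNA and the scrambled sequence the family divided: KLF2, KLF10 and KLF11 rose and KLF4 and KLF5 fell. These are 5 of 9 genes, in a comparison where 8.22% of all genes were called, with 3.47% higher and 4.74% lower. The median of the 9 was -0.10, against 0.01 over all genes. In 8 of the 9 genes the 2 groups did not overlap, KLF13 being the exception, and this was so for 57.6% of all genes.

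KLF4 was at 7.56 and 8.32 on the scrambled arrays and at 6.07 and 6.58 on the siRNA arrays. It fell by 1.61 on the log2 scale (SE 0.23), or 3.06-fold (adjusted p = 0.00129). KLF5 was at 8.11 and 8.30 with the scrambled sequence and at 7.10 and 7.11 with the siRNA, a fall of 2.14-fold (log2 difference -1.10 ± 0.15 SE, adjusted p = 0.000809). In KLF4 the siRNA arrays were also below both untreated arrays. For KLF5 the scrambled arrays were above the untreated ones, so its siRNA level was nearer to that of untreated cells.

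KLF2 moved the other way, from 6.21 and 6.50 with the scrambled sequence to 7.29 and 7.59 with the siRNA. It rose 2.13-fold, by 1.09 ± 0.17 (SE; adjusted p = 0.00249). Its scrambled arrays were the lowest of the 8 and its Y15 arrays the highest.

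KLF11 rose with the siRNA by 0.59 ± 0.14 (SE), or 1.51-fold (adjusted p = 0.0251), from 7.14 and 7.28 to 7.80 on both arrays. The call was lost without any 1 of the 4 arrays (adjusted p between 0.0999 and 0.183). KLF10 was at 6.81 and 6.74 with the scrambled sequence and at 7.60 and 7.21 with the siRNA. Its rise of 0.63 ± 0.18 (SE), or 1.55-fold, lay just inside the threshold (adjusted p = 0.0497), and it too was lost without any 1 of the 4 arrays (adjusted p between 0.0589 and 0.379). Both calls were also lost when arrays were centred on their medians and when the probes of a gene were averaged.

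The other tested genes were not called between siRNA and scrambled sequence. KLF3 had a difference of -0.49 ± 0.18 (SE; adjusted p = 0.136), and KLF6 one of -0.46 ± 0.23 (SE; adjusted p = 0.279). KLF13 was at 8.66 and 8.84 with the scrambled sequence and 8.92 and 8.80 with the siRNA. KLF9 was not detected on any of these 4 arrays, with 4.51 and 4.52 against 4.43 and 4.39, so no change could be read there.

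Each gene's Y15 effect was then tested against its siRNA effect, and these comparisons share no array. It was called in 5 of 9 genes, all in the direction of a higher Y15 effect, against 30.8% of all genes called, with 13.8% in that direction and 17% in the other. KLF4 differed most, by 3.04 ± 0.33 (SE; adjusted p = 6.08e-05), followed by KLF6, KLF5, KLF9 and KLF3. The KLF9 call rests on its Y15 rise alone, since its siRNA effect was read on undetected signal. KLF2, KLF10 and KLF11 were called higher in both comparisons. For KLF2 the effects differed by 0.39 with a 95% interval from -0.15 to 0.93 (adjusted p = 0.249), or by -0.34 with median centring. For KLF10 the effects differed at the brightest probe by -0.03 with an interval from -0.58 to 0.52, or by -0.76 with median centring. In the fit of all kept probes, its second probe differed by 1.08 (adjusted p = 0.00231) and the third by 0.32. For KLF11 they differed by 0.27, or -0.43 with median centring (adjusted p = 0.336 in the first). When only probes detected at p below 0.01 on all 8 arrays were kept, KLF3 and KLF9 were not tested and 3 of 7 genes were called.

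**Figure D3:**
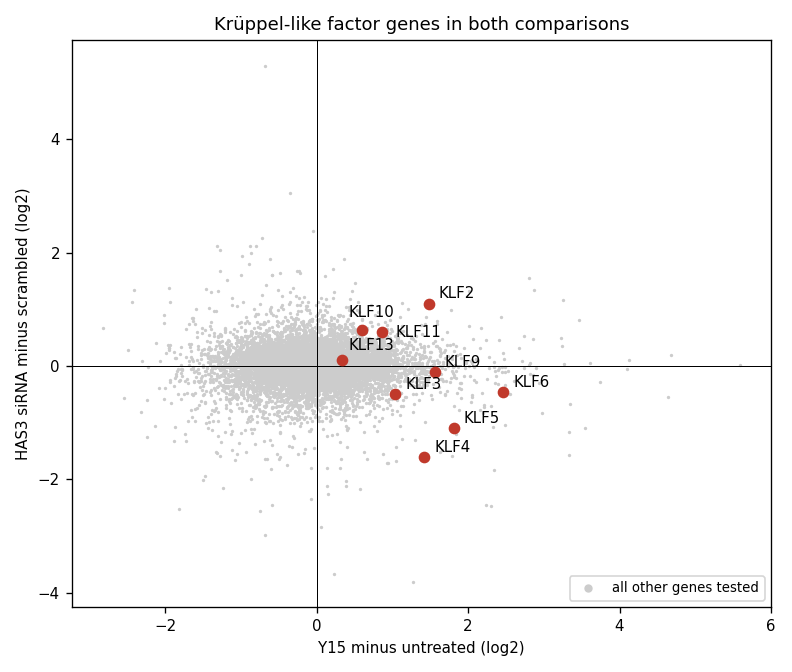
Effect of the siRNA (siRNA minus scrambled, log2) against that of Y15 (Y15 minus untreated, log2) for all genes tested, grey, and the Krüppel-like factor genes, named. KLF4 and KLF5 lie to the lower right, at -1.61 and -1.10 on the vertical axis, and KLF2 to the upper right at 1.48 and 1.09.

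The 2 control groups also differed, and all the comparisons with untreated cells share the same 2 untreated arrays. In scrambled against untreated cells 1 gene rose (KLF5) and 4 fell (KLF2, KLF9, KLF11 and KLF13), in a comparison with 19.5% of all genes called (8.84% higher and 10.7% lower). The groups did not overlap in 7 of the 9 genes and in 62.9% of all genes. KLF11 fell most, from 8.63 and 8.72 to 7.14 and 7.28, by 1.47 on the log2 scale (SE 0.14), or 2.76-fold (adjusted p = 8.12e-05). KLF9 was detected in untreated cells alone of these 2 groups and was at least 1.51-fold lower with the scrambled sequence (adjusted p = 0.000781). That bound holds for the main background setting only. The log2 difference was -0.99 there and -0.49 with a nec offset of 50. Of the 4 Sin3-binding members tested, 3 thus fell. KLF10 was not called at its brightest probe (-0.48 ± 0.18 SE, adjusted p = 0.0772), and its other 2 probes read higher in scrambled cells, by 0.42 and 0.31.

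KLF13 fell 1.53-fold (adjusted p = 0.0152) and KLF2 fell 1.62-fold (adjusted p = 0.0169) in scrambled against untreated cells, while KLF5 rose 1.65-fold (adjusted p = 0.00645). These 3 calls rest on single arrays. Without the first untreated array their adjusted p-values were 0.115, 0.0837 and 0.0544, without the second untreated array KLF2 had 0.0663, without the first scrambled array KLF2 had 0.163 and KLF13 0.139, and without the second scrambled array KLF5 had 0.0652. KLF4 and KLF3 overlapped between the groups, at differences of 0.10 and 0.18, and KLF6 had one of 0.44 ± 0.23 (SE; adjusted p = 0.210).

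Against untreated cells the siRNA arrays had 0 rises (1 at an unadjusted limma p below 0.05, KLF2) and 4 falls (KLF4, KLF9, KLF11 and KLF13), with 26.2% of all genes called (12.2% higher and 14% lower). The groups did not overlap in 7 of the 9 genes and in 63.4% of all genes. KLF4 fell 2.84-fold (adjusted p = 0.000787), KLF11 1.84-fold (adjusted p = 0.00115) and KLF9 at least 1.63-fold (adjusted p = 0.000236). The KLF9 bound again holds for the main background setting only. Its log2 difference was -1.09 there and -0.53 with a nec offset of 50. KLF13 fell 1.42-fold (adjusted p = 0.0282), a call lost without the first untreated array (adjusted p = 0.167) or either siRNA array (0.0851 and 0.154). So KLF4 was low in the siRNA group against both controls. KLF2 and KLF5 had differences of 0.40 and -0.38 against untreated cells, neither called.

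The order of the 4 groups therefore varied by gene. In KLF4 and KLF5 it ran siRNA, untreated, scrambled, Y15, as it did by mean in KLF3 and KLF6. Untreated and scrambled arrays overlapped in KLF4 and KLF3 and were not called apart in KLF6. They did not overlap in KLF5 and were called apart. In KLF6 the siRNA and untreated arrays overlapped. In KLF3 and KLF5 the siRNA arrays lay below the untreated ones without overlap, but neither difference was called (adjusted p = 0.236 and 0.0815). In KLF2 the order ran scrambled, untreated, siRNA, Y15, where scrambled and untreated arrays were called apart and untreated and siRNA arrays were not. KLF10 had this order at its brightest probe, with neither of these neighbours called apart, while its other probes were lowest in untreated cells. In KLF9 Y15 lay above untreated cells and both transfected groups were undetected. In KLF11 it ran scrambled, siRNA, untreated, Y15, with each neighbour called apart at the brightest probe. KLF13 had the same order by mean, but its scrambled and siRNA arrays overlapped and Y15 and untreated cells were not called apart. Y15 was not set against the transfected groups by a test. At the probe used, Y15 had the highest mean in all 9 genes tested.

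KLF10 and KLF11 had more than 1 probe kept. The second KLF10 probe was at 6.76 and 6.54 in untreated cells, 7.86 and 7.72 with Y15, 7.20 and 7.06 with the siRNA, and 7.11 and 7.03 with the scrambled sequence. In the fit of all kept probes, it rose with Y15 by 1.14 (adjusted p = 9.81e-05), against 0.60 at the brightest probe and 0.49 at the third (adjusted p = 0.0482). The probes disagreed elsewhere. Between siRNA and scrambled sequence the second and the third probe differed by 0.06 and 0.16, and between scrambled and untreated cells by 0.42 and 0.31, where the brightest read -0.48. The rise of KLF10 with Y15 was thus called at all 3 probes. That with the siRNA was called at none of them in this fit, with an adjusted p of 0.0591 at the brightest.

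**Figure D4:**
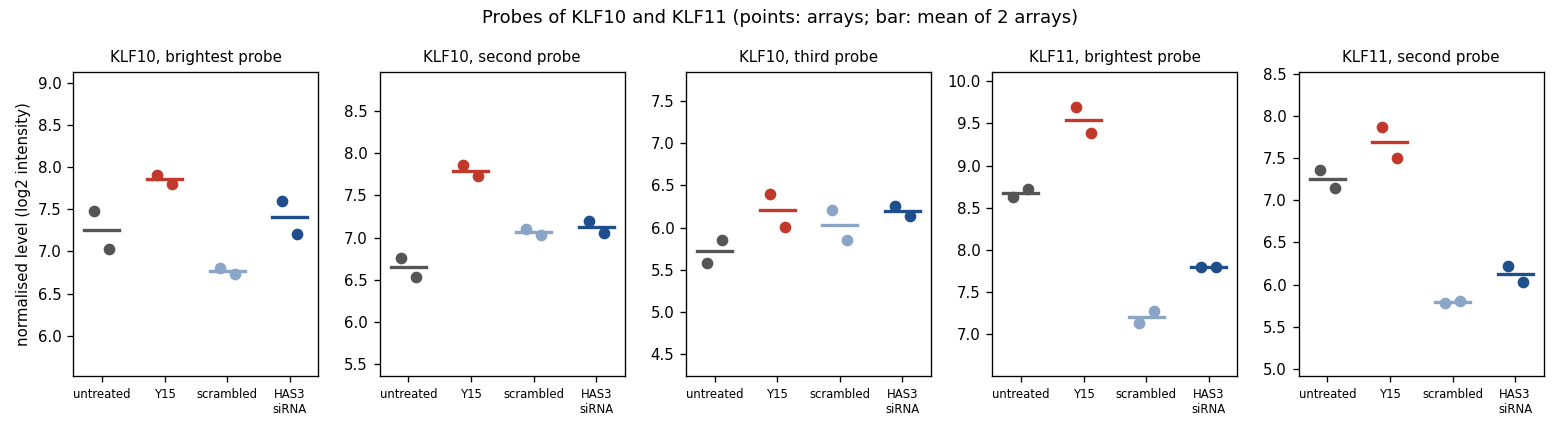
Normalised level (log2 intensity) of the probes of KLF10 (3 probes) and KLF11 (2 probes) on each array, with the group mean as a bar. All 5 probes are higher with Y15 than in untreated cells on average, while the 3 KLF10 probes order the other groups differently.

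The second KLF11 probe was at 7.36 and 7.15 in untreated cells, 7.87 and 7.50 with Y15, 6.22 and 6.03 with the siRNA, and 5.78 and 5.81 with the scrambled sequence. It had the same direction as the brightest probe in every comparison made. In the fit of all kept probes, its difference of 0.33 between siRNA and scrambled sequence was not called (adjusted p = 0.274). Its fall in scrambled against untreated cells was 1.46 on the log2 scale (adjusted p = 0.000242), and its Y15 difference of 0.43 lay at the threshold (adjusted p = 0.05).

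Across the 8 arrays, the levels of KLF3, KLF4 and KLF5 followed each other with Pearson r from 0.904 to 0.944, and those of KLF9, KLF11 and KLF13 from 0.926 to 0.966. KLF4 and KLF10 followed each other least, at r = 0.29. These are descriptions over arrays that form 4 groups, so each rests largely on 4 group means.

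Among 1960 genes that varied by more than 1 log2 unit between group means, those most like KLF4 were ATF3 (r = 0.989), DUSP16 (0.987) and ZYX (0.987). Those most like KLF6 were SSUH2 (0.996), TNFRSF12A (0.987) and ZFP36 (0.985). SSUH2 had a mean of 5.99 with Y15, against 4.56 in untreated, 4.52 in siRNA and 4.78 in scrambled cells. The dimmest detected probe of those other arrays was at 4.76 to 4.99, so outside Y15 SSUH2 was read near background. Those most like KLF2 were CA2 (0.987), ZNF385A (0.977) and MALL (0.963), and those most like KLF5 were SH3RF1 (0.983), ACVR1 (0.983) and PLAA (0.977).

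The rest of the KLF and SP family, 16 further genes, had 9 tested. With Y15, 2 rose (SP2 and SP6) and 2 fell (SP5, by 1.69 on the log2 scale, and KLF15, by 0.75), where 41.8% of all genes were called. With the siRNA against the scrambled sequence, KLF12, a CtBP-dependent repressor, fell by 1.12 (adjusted p = 0.00239) and SP5, a Wnt target gene, rose by 0.73 (adjusted p = 0.00527). SP5 was lower in scrambled than in untreated cells, by 0.59 (adjusted p = 0.01). Between siRNA and untreated cells SP5 was not called (0.14, adjusted p = 0.495), while KLF12 was lower by 0.97 (adjusted p = 0.00219). The median Y15 difference of the 9 tested genes was 0.16, against -0.03 over all genes.

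KLF proteins work with cofactors and are themselves controlled. The lists that follow are to be read against the 41.8% of all genes called with Y15 (18.8% higher and 23% lower) and the 8.22% called with the siRNA. Counts at an unadjusted p have no such share beside them. Of 14 tested cofactor genes, 3 rose and 4 fell with Y15, among them CREBBP, an acetyltransferase, which rose by 0.97 (adjusted p = 0.000155), and SIN3B, which fell by 0.79 (adjusted p = 0.00152). With the siRNA against the scrambled sequence 4 fell and none rose. Among them, the corepressor CTBP2 fell by 0.86 (adjusted p = 0.00671) and the remodelling ATPase SMARCA4 by 0.89 (adjusted p = 0.00264). From untreated to scrambled cells, however, CTBP2 had gone up by 0.87 (adjusted p = 0.00408). Its siRNA arrays were not called apart from the untreated ones. SMARCA4 had a difference of -0.83 between siRNA and untreated cells (adjusted p = 0.00154). The kinase MAP2K5 and MAPK7 (ERK5), with MEF2 factors, form a route that induces KLF2 and KLF4. Of its 5 tested genes, 3 rose with Y15 (MAP3K2, MEF2A and MAPK7) and MAP2K5 fell by 1.34 (adjusted p = 6.44e-05). A further list held genes for enzymes that add ubiquitin to KLF proteins or remove it. Of its 7 tested genes, FBXW7 rose and ITCH fell with Y15. None was called with the siRNA, by limma's adjusted or unadjusted p. The medians with Y15 were -0.0054 for cofactors, 0.80 for the ERK5 route and 0.22 for ubiquitin genes, and with the siRNA -0.03, -0.03 and -0.0061, against -0.03 and 0.01 over all genes.

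Genes described as induced through KLF4, KLF2 or KLF6 numbered 12 tested, of which 5 rose and none fell with Y15, with 41.8% of all genes called (7 and 0 at an unadjusted limma p below 0.05). CDKN1A, the p21 cell cycle inhibitor, rose 7.06-fold (adjusted p = 7.92e-08), ATF3 4.72-fold and PLAU, the urokinase gene, 3.33-fold. With the siRNA none rose and 4 fell (1 and 5 unadjusted), with CDH1 (E-cadherin) 3.49-fold lower (adjusted p = 1.36e-05) and ATF3 5.5-fold lower (adjusted p = 0.000132). The list median was 0.35 with Y15 and -0.02 with the siRNA, against -0.03 and 0.01 over all genes.

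Of 11 tested genes described as induced through KLF5, 2 rose and 2 fell with Y15, where 41.8% of all genes were called. FGFBP1, a carrier of fibroblast growth factors, rose 10.1-fold with Y15 (adjusted p = 5.15e-08), while CCNB1 (cyclin B) fell 1.94-fold. Between siRNA and scrambled sequence FGFBP1 fell 2.98-fold (adjusted p = 4.82e-05), and the scrambled arrays read it 10.6-fold above the untreated ones (adjusted p = 1.36e-07). Of 8 tested genes described as repressed by KLF4, 3 fell and 3 rose with Y15. The stem cell genes ASCL2 and LGR5 fell 3.81-fold and 2.43-fold, and IFITM3 fell 1.97-fold. BMI1, ODC1 and HSPD1 rose 1.68-fold, 1.54-fold and 1.43-fold. With the siRNA against the scrambled sequence, 1 of the 8 rose (CCND2, a cyclin, at least 1.24-fold) and none fell, against 4 rises and 0 falls at an unadjusted limma p below 0.05. CCND2 was lower than in untreated cells in both transfected groups. It fell at least 3.18-fold with the scrambled sequence (adjusted p = 9.31e-06) and 2.56-fold with the siRNA (adjusted p = 7.98e-05). The medians with Y15 and the siRNA were 0.11 and -0.19 for the first list and 0.10 and 0.25 for the second.

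Of 10 tested TGF-beta early response genes, set beside KLF10 and KLF11, 4 rose and 1 fell with Y15 (41.8% of all genes called), with BHLHE40 up 2.49-fold and ID1 down 1.62-fold. None was called with the siRNA, nor had any a limma p below 0.05 before adjustment. Of 4 tested genes of the glucocorticoid and thyroid hormone response, set beside KLF9, DUSP1 and TSC22D3 rose with Y15 (adjusted p = 0.000861 and 0.00329), and TSC22D3 fell 2.43-fold with the siRNA (adjusted p = 0.00695). The medians with Y15 were 0.21 and 0.44 for these lists, and with the siRNA -0.0034 and -0.21.

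The cells carried epithelial transcripts throughout: of 11 colon epithelial markers 7 or 8 were detected on every array, and KRT20, CDX1 and LGALS4 on none. Of 8 markers of goblet and other differentiated colon cells, the setting in which KLF4 is known to be high, 1 or 2 were detected, and MUC2, SPINK4, CLCA1, CA1, SLC26A3 and AQP8 on none. Of the 8 epithelial markers tested, 3 fell and none rose with Y15. They were CDX2, by 2.14 (adjusted p = 1.64e-06), VIL1 and KRT8. With the siRNA against the scrambled sequence 2 fell and none rose: CDX2 by 1.07 (adjusted p = 0.00133) and CDH1 3.49-fold. Of the 2 markers of differentiated cells tested, TFF3 fell by 1.37 and CA2 rose by 1.10 with Y15. CA2 also rose with the siRNA, by 0.57 (adjusted p = 0.0359), while TFF3 was not called there. Their part in the KLF4 result was not tested, and in these bulk samples fewer cells of a type and less RNA per cell cannot be told apart.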

How the data were processed

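Per the labels' protocols, 250 to 500 ng of total RNA gave biotin-labelled cRNA for each Illumina bead array. The authors deposited a table of non-normalized intensity values on a linear scale, with a detection p-value beside each intensity per the file headers. The submitters' processing notes name GenomeStudio, with its version not given in the sources used here. Background had not been subtracted from the table, whose smallest values were 25.4 to 29.7 per array. The deposited series matrix holds log2 values that equal the quantile-normalized log2 intensities to within 5e-09.

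Of 24526 probes, the 14631 with a detection p-value below 0.05 on at least 2 of 8 arrays were kept. In R 4.3.3, limma 3.58.1 corrected background (nec, offset 16), normalized by quantiles and fitted 4 group means with lmFit and eBayes. The brightest probe stood for each gene, named from the platform annotation and a RefSeq list (GRCh38.p14). For a gene undetected on both arrays of a group, the fold is a lower bound, taken on each array against its own level or that of the dimmest detected probe, whichever was higher. Alternatives changed background, scaling, filter, probe choice, fit and arrays. The fit was tested on simulated data. Protein sequences were not used here.

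The genes and lists were chosen with earlier results of these data known. Genes named are the 10 KLF genes with every probe, called members of the rest of the family, up to 3 genes per list and comparison of smallest p (others only where a list had 5 or fewer calls in a direction, chosen after their values were seen), and for KLF2, KLF4, KLF5 and KLF6 the 3 genes of most like pattern.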

Additional observations from a re-analysis of the deposited data

Results flagged for a closer look

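In 5 genes, of which KLF9 can be read on the Y15 side only, the Y15 effect and the HAS3 siRNA effect differed by a test of the difference itself (limma, adjusted over all genes), with 2 arrays per group. KLF4 had an effect of 1.42 with Y15 and -1.61 with the siRNA, a difference of 3.04 ± 0.33 (SE; adjusted p = 6.08e-05). KLF6 had 2.47 and -0.46, a difference of 2.92 ± 0.33 (adjusted p = 7.44e-05), and KLF5 had 1.81 and -1.10, a difference of 2.91 ± 0.21 (adjusted p = 2.89e-06). For KLF9 the fit gave a difference of 1.67 ± 0.20 (adjusted p = 0.000112), which reflects its Y15 effect of 1.56, because it was undetected on all 4 transfected arrays and has no readable siRNA effect. KLF3 had 1.04 and -0.49, a difference of 1.53 ± 0.26 (adjusted p = 0.00113). All values are log2 differences. With HAS3 siRNA alone, KLF3, KLF6 and KLF9 were not called.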

How the results depend on the processing

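With 2 arrays per group, no result here has more than the spread between these arrays behind it. Signal near background limits KLF9 and KLF16, and KLF3 was also dim. The KLF3 rise with Y15, 1.04 in the main fit, depended in size on the background setting. It was 0.81 with no background correction, 0.75 with nec offset 50 and 0.69 with normexp offset 50, and was called each time. KLF2, KLF4, KLF5, KLF6 and KLF9 kept their Y15 calls, and KLF2, KLF4 and KLF5 their siRNA calls, in every alternative run that tested them; no difference called reversed. Median centring left 5 Y15 calls of 8 and 3 siRNA calls of 5 among the KLF genes; centring on kept probes, added after the data were seen, and averaging the probes of a gene also left 3 siRNA calls. Requiring detection below 0.01 on all 8 arrays left 3 of 5 differences between the effects. Leaving out 1 array gave 7 to 8 Y15 calls, 3 to 3 siRNA calls, 2 to 5 calls in scrambled against untreated cells (5 in the full fit) and 3 to 4 in siRNA against untreated cells (4). KLF10 with the siRNA was also lost with nec offset 50 (adjusted p = 0.0571), cyclic loess (0.0607), no detection filter (0.112) and all probes (0.0591), and KLF5 in scrambled against untreated cells with median centring (0.260). KLF13 in siRNA against untreated cells was lost with both centrings (0.202 and 0.0827). KLF5 was called in siRNA against untreated cells with cyclic loess (0.0425), and KLF10 in scrambled against untreated cells without the second untreated array (0.0342). The replicate numbers were not taken to pair the arrays. Deviations of same-numbered arrays correlated at -0.07 to 0.27, highest between untreated and Y15 arrays. With the replicate number as a block, 8, 5, 6, 4 and 5 genes were called in the 5 comparisons. The added call was KLF10 in scrambled against untreated cells (adjusted p = 0.0325). Over all genes that block gave more calls in each comparison. They were 4851 against 4538 with Y15, 1146 against 892 for siRNA against scrambled and 2477 against 2118 for scrambled against untreated. For siRNA against untreated they were 3155 against 2843, and for the difference of the effects 3678 against 3345. Over all genes, siRNA against scrambled gave 892 calls, 323 and 534 with the centrings, 1409 with the 4 arrays alone and 319 to 452 without 1 array. Scrambled against untreated gave 2118 calls, 1055 with median centring and 696 to 1615 without 1 array, and siRNA against untreated 2843, 1176 and 1425 to 1975. The cause of these changes was not tested.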
